A study of Mus musculus with 8 samples.

Results

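Antiviral effector genes of the interferon response were followed in osteoclasts, the multinucleated cells that degrade bone, grown from Elmo1-/- and Elmo1+/- mice. The 10 genes were Isg15, Usp18, Herc6, Mx1, Mx2, Rsad2 (which encodes viperin), Cmpk2, Bst2, Isg20 and Xaf1. They were found by matching the Ensembl identifiers of the deposited table to these symbols, and all 10 were among the 46517 genes listed. Bone marrow was taken from mice 6 to 8 weeks old. After 16 h in culture, the cells still in suspension were moved to 10% medium conditioned by L929 cells, a source of macrophage colony-stimulating factor. By the study's methods the cells that then attached were replated and given GST-RANKL, the cytokine that drives osteoclast formation, at 50 ng/ml for 7 days, whereas the labels name no replating. RNA was sequenced from 4 mice with a global deletion of Elmo1, which encodes an engulfment and cell motility protein that acts with DOCK proteins on the GTPase Rac, and from 4 controls. The controls carried 1 deleted copy of Elmo1, although the titles of their libraries call them wild type, so no mouse with 2 intact copies was compared and the deleted allele was shared by both groups. RANKL and the L929 medium were likewise given to every culture, and the labels name no added interferon or virus. The study sequenced 2 mice per genotype in each of 2 experiments. The labels number the mice 1 to 4 in each genotype and do not say which mice shared an experiment.

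Interferons are secreted proteins that signal through the receptor chains IFNAR1 and IFNAR2 and the kinases JAK1 and TYK2. A complex that includes STAT2 and IRF9 then binds the interferon-stimulated response element in the promoters of many target genes, and the genes described here are all known to be induced by interferon. In the osteoclast lineage, RANKL is known to induce interferon beta, which in turn restrains osteoclast formation. Some of the encoded proteins act on viruses directly, by trapping particles, degrading RNA or making chain-terminating nucleotides, and others act on the host cell, such as Usp18 on interferon signalling and Xaf1 on apoptosis.

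In the mouse genome (GRCm38), the members include 2 neighbouring pairs. Mx1 (chromosome 16, 97447035 to 97462907, minus strand) and Mx2 (97535308 to 97560900, plus strand) are 72.4 kb apart. Rsad2 (chromosome 12, 26442746 to 26456452, minus strand) and Cmpk2 (26469204 to 26479837, plus strand) are separated by 12751 bases. The promoters of 7 members were in the RefSeq table for GRCm38.p6, and the 250 bases before each start site were searched on both strands for GAAANNGAAA, the core of the interferon-stimulated response element. The letters were found in 3 of these 7 genes, and in 3.46% of all 27025 genes or 2.98% of all 32851 promoters in the table. Matches in Isg15 began 78, 72 and 66 bases before the start and overlapped. Those in Bst2 began at 130 and 124 bases and also overlapped, and the match in Rsad2, at 120 bases, was on the opposite strand. No match was found in these windows of Cmpk2, Herc6, Isg20 and Xaf1. The last 200 bases before the start of the 3 promoters with a match are shown, 5′ to 3′ on the strand of the gene, because they hold the letters of the element named for the interferon response. Capitals mark the matched letters, on either strand, and each match is a description of the sequence only.
Isg15 (chr4:156200819-156201018, minus strand): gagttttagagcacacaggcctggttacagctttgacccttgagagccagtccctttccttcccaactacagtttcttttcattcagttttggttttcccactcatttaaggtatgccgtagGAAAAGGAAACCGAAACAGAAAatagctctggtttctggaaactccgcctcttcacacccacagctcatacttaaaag
Rsad2 (chr12:26456453-26456652, minus strand): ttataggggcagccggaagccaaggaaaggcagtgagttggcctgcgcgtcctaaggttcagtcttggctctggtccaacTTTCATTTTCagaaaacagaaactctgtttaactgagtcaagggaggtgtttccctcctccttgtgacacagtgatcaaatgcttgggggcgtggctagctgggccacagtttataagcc
Bst2 (chr8:71537473-71537672, minus strand): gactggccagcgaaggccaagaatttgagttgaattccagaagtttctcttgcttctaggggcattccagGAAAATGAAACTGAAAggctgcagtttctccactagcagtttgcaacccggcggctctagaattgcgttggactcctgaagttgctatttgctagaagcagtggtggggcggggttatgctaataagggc

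The libraries held 20905502 to 40846651 reads on genes, and all values below are normalized counts, that is, reads per gene divided by 1 size factor per library. Elmo1 itself lay between 274 and 316 in the Elmo1-/- mice and between 1423 and 1769 in the controls (log2 fold change −2.44, limma, Benjamini-Hochberg adjusted p = 8.40e-06), so the deleted gene was low in every library labelled Elmo1-/-. The first principal component, with 62.3% of the variance, parted mice 1 and 2 from mice 3 and 4 in both genotypes, and Elmo1-/- mouse 1 stood at its end, at −52.3 against values of −26.3 to 31.9 in the other 7 libraries. That mouse also had the lowest level of each of 10 osteoclast markers, including Acp5, Ctsk and Mmp9. The share of all tested genes that were lowest in it was not counted. The 10 markers summed to 450909 normalized counts in Elmo1-/- mouse 1, 527397 in mouse 2, 1173010 in mouse 3 and 1154860 in mouse 4. In the controls the sums were 692445, 589401, 1091130 and 1029110 in the same order. The results for the members are therefore given with and without Elmo1-/- mouse 1.

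The antiviral genes were on average higher in Elmo1-/- osteoclasts, but no member passed the test and the difference was smaller without 1 mouse. All 10 members had a log2 fold change above 0, against 48.4% of the 14139 genes tested, with a median of 0.41 against −0.0031 over all tested genes. By limma with Benjamini-Hochberg adjustment, 0 of 10 were called (adjusted p = 0.9999 for each), where 0.00707% of all genes, Elmo1 alone, were called. Before adjustment, Rsad2 and Cmpk2 had a limma p under 0.05, against 0.941% of all tested genes and 0.53% in the same direction. The edgeR quasi-likelihood test on the reads also called 0 members, with all 10 above 0 (49.6% of all genes). It put 3 under an unadjusted 0.05, namely Rsad2, Cmpk2 and Herc6, against 1.0% of all genes. The Wald test of DESeq2 called 0 members and put 4 under an unadjusted 0.05, against 137 of the 14139 genes tested. No member had groups that did not overlap, which 0.941% of all tested genes had, 0.502% with all Elmo1-/- mice above. Elmo1-/- mouse 1 was the highest of the 8 mice for 10 of 10 members, against 27.1% of all genes. Leaving it out could therefore only lower their log2 fold changes. Without that mouse, 9 of 10 members were still above 0 (51.3% of all genes), the median log2 fold change was 0.15, and limma called 0 (adjusted p = 0.937 to 0.965). None was then under an unadjusted 0.05 (2.41% of all genes, 1.21% in that direction) or had all 3 Elmo1-/- mice above the controls (2.34%). These are whole cultures, so fewer cells of a type and less RNA per cell cannot be told apart. Mx2, Rsad2, Cmpk2 and Herc6 are in the study's own list of changed genes, which was chosen on these same libraries and is not independent evidence of their direction.

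**Figure D1:**
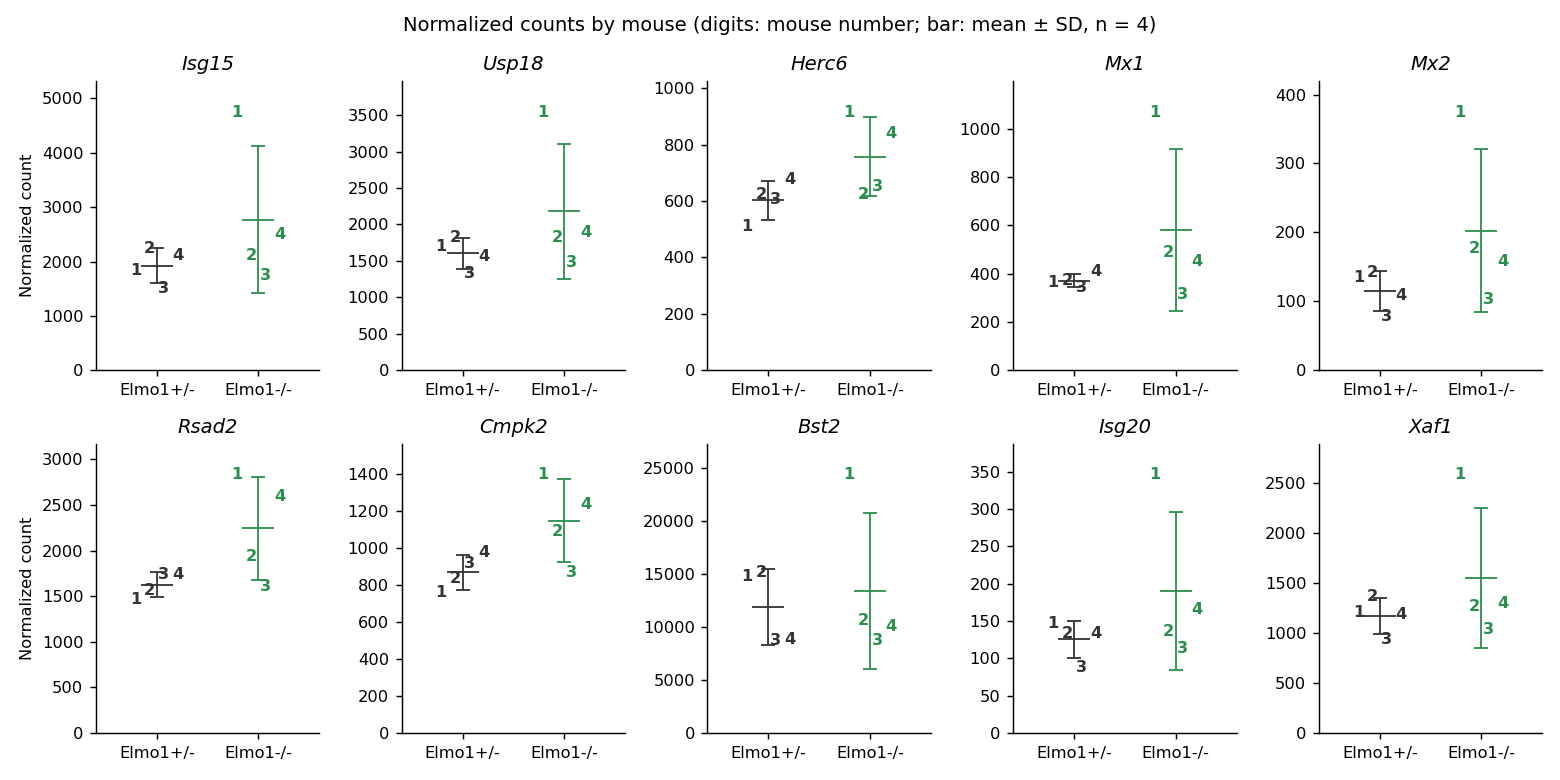
Normalized counts of the 10 antiviral genes (y axis, from 0) in each mouse by genotype (x axis), with the digit giving the mouse number, the horizontal line the mean and the bar the SD of 4 mice. Elmo1-/- mouse 1 is the highest of the 8 in every panel, at 4751 for Isg15 and 24357 for Bst2, while Elmo1-/- mouse 3 lies within or below the range of the controls in all of them.

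Isg15 (chromosome 4, 156199424 to 156200818, minus strand) encodes a ubiquitin-like protein that is attached to other proteins during infection and is also secreted. From mouse 1 to mouse 4 it stood at 4751, 2106, 1741 and 2492 normalized counts in Elmo1-/-, and at 1843, 2233, 1511 and 2107 in the controls. Mouse 1 reached 1.91 times the next mouse, mouse 4 exceeded the highest control, and mice 2 and 3 lay inside the range of the controls. Group means of 2773 ± 1354 and 1924 ± 319.8 (SD, n = 4) corresponded to a log2 fold change of 0.43 with a standard error of 0.28. An exact two-sided permutation test over the 70 arrangements of the mice gave p = 0.286, where 0.0286 is the smallest p it can give. Here and below, this test took no account of the sets that the first principal component parts. Without mouse 1 the 3 remaining Elmo1-/- mice averaged 2113 ± 376 (SD, n = 3) and the log2 fold change was 0.14.

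Usp18 (chromosome 6, 121245906 to 121270917, plus strand), the protease that removes ISG15 from proteins and that also binds IFNAR2 to dampen the receptor, followed the same course. It was at 3544, 1815, 1472 and 1888 in the Elmo1-/- mice and at 1696, 1827, 1334 and 1559.9 in the controls. Mouse 1 was 1.88 times the next mouse, Elmo1-/- mouse 4, which slightly exceeded the highest control, and mice 2 and 3 lay among the controls. The log2 fold change was 0.37 (standard error 0.24, exact permutation p = 0.257) and fell to 0.11 without mouse 1. Herc6 (chromosome 6, 57581000 to 57664632, plus strand), the main ligase that attaches ISG15 in mice, was less extreme in mouse 1, with 916, 625, 653 and 838 against 509, 623, 605 and 676. Here both mouse 1 and mouse 4 of the Elmo1-/- group exceeded every control and mice 2 and 3 lay within their range, and the log2 fold change of 0.32 (standard error 0.14, exact permutation p = 0.143) became 0.22 without mouse 1. The annotation places Gm44148 on the opposite strand of Usp18, at 0 to 6.44 normalized counts, and Gm45193 and Gm19244 across Herc6, both at 0 in all libraries.

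The remaining enzymes of the ISG15 pathway were not called either. Uba7, the enzyme that activates ISG15, had 2804, 1408, 1124 and 1410 normalized counts in the Elmo1-/- mice against 1619, 1743, 1022 and 1253 in the controls (log2 fold change 0.20, limma adjusted p = 0.9999), and −0.08 without mouse 1. Ube2l6, which carries ISG15 to the ligase, had 3658, 1959.9, 1849.7 and 2265 against 1871, 2006, 1709.99 and 2099.5 (0.29, limma adjusted p = 0.9999), and 0.07 without mouse 1. Both were highest in mouse 1, at 1.61 and 1.62 times the next mouse, and for Uba7 the other 3 Elmo1-/- mice lay inside the range of the controls.

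The Mx genes encode dynamin-like GTPases that assemble on viral ribonucleoproteins, and many inbred laboratory strains carry defective copies of them. Mx1 had 1069, 486, 314 and 451 normalized counts in the Elmo1-/- mice and 362, 369.8, 344 and 408 in the controls. Mice 1, 2 and 4 lay above every control and mouse 3 below every one, so that the groups overlapped through mouse 3 alone. The means were 580.0 ± 334 and 371 ± 27.0 (SD, n = 4), and the log2 fold change of 0.49 (standard error 0.32, exact permutation p = 0.2) became 0.15 without mouse 1 and 0.73 without mouse 3.

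The largest log2 fold change of the 10 was that of Mx2, 0.68 with a standard error of 0.37. GENCODE classes Mx2 as a polymorphic pseudogene, a gene whose reading frame is broken in the reference strain and intact in some others. It was at 375, 176, 103 and 157 in the Elmo1-/- mice and at 134, 141, 77.7 and 108 in the controls. Again mice 1, 2 and 4 were above every control, but here mouse 3 was above its own same-numbered control, and the groups overlapped (exact permutation p = 0.171). The mean of 203 ± 119 against 115 ± 28.9 (SD, n = 4) became 145 ± 38.1 (SD, n = 3) without mouse 1, a log2 fold change of 0.33. In control 3 only 51 reads fell on Mx2, the fewest on any member in any library, and how reads shared by Mx1 and Mx2 were assigned is not given in the sources used here.

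Viperin, encoded by Rsad2, makes a modified cytidine nucleotide that stops viral RNA synthesis, and the kinase encoded by its neighbour Cmpk2 supplies the substrate. Rsad2 had 2831, 1938, 1609 and 2592 normalized counts in the Elmo1-/- mice and 1459, 1561, 1740.4 and 1733 in the controls. Mice 1, 2 and 4 exceeded every control, mouse 4 was close to mouse 1, which was 1.09 times higher, and mouse 3 lay among the controls. The means were 2243 ± 566 and 1623 ± 138 (SD, n = 4), with a log2 fold change of 0.43 and a standard error of 0.17 (limma unadjusted p = 0.0321, exact permutation p = 0.0857).

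Cmpk2 repeated this order among the Elmo1-/- mice, at 1395, 1086, 867 and 1235 in the Elmo1-/- mice and 757, 832, 914 and 974 in the controls. The same 3 Elmo1-/- mice stood above every control and mouse 3 among them. The log2 fold change was 0.38 with a standard error of 0.15 (limma unadjusted p = 0.0288, exact permutation p = 0.0857). Without mouse 1 the log2 fold changes were 0.31 for Rsad2 and 0.28 for Cmpk2, beside 0.33 for Mx2 and 0.22 or less for the other members, with limma unadjusted p = 0.0738 and 0.0677. Over the 8 mice their centred log2 levels differed by a root mean square of 0.078, and each was the other's nearest member. The pair shares a locus and libraries, so these are not independent readings.

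Bst2 (chromosome 8, 71534255 to 71537456, minus strand), the membrane protein tetherin that holds budding viruses at the cell surface, was the member whose direction depended on the mice used. It reached 24357, 10587, 8694 and 10018 normalized counts with Elmo1 deleted, against 14802, 15177, 8673 and 8845 in the controls. Mouse 1 was 1.605 times the next mouse, and controls 1 and 2 exceeded the other 3 Elmo1-/- mice. The log2 fold change was 0.10 with a standard error of 0.34 (exact permutation p = 0.8), and it was −0.24 without Elmo1-/- mouse 1, −0.04 without control 3 and −0.03 without control 4.

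Isg20 (chromosome 7, 78913424 to 78920396, plus strand), an exonuclease that degrades viral RNA, was at 346, 136, 113 and 166 in the Elmo1-/- mice and 146, 133, 88.3 and 133 in the controls. Mouse 1 was 2.09 times the next mouse, mouse 4 was above every control, and the groups overlapped (log2 fold change 0.48, standard error 0.33, exact permutation p = 0.314, and 0.15 without mouse 1). Xaf1 (chromosome 11, 72301629 to 72313733, plus strand), which binds the apoptosis inhibitor XIAP, was at 2587, 1267, 1040.0 and 1299.9 against 1208, 1369, 933 and 1183. Apart from mouse 1, at 1.89 times the next mouse, its Elmo1-/- values lay within the range of the controls, and the log2 fold change of 0.32 (standard error 0.26, exact permutation p = 0.4) became 0.04 without it.

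**Figure D2:**
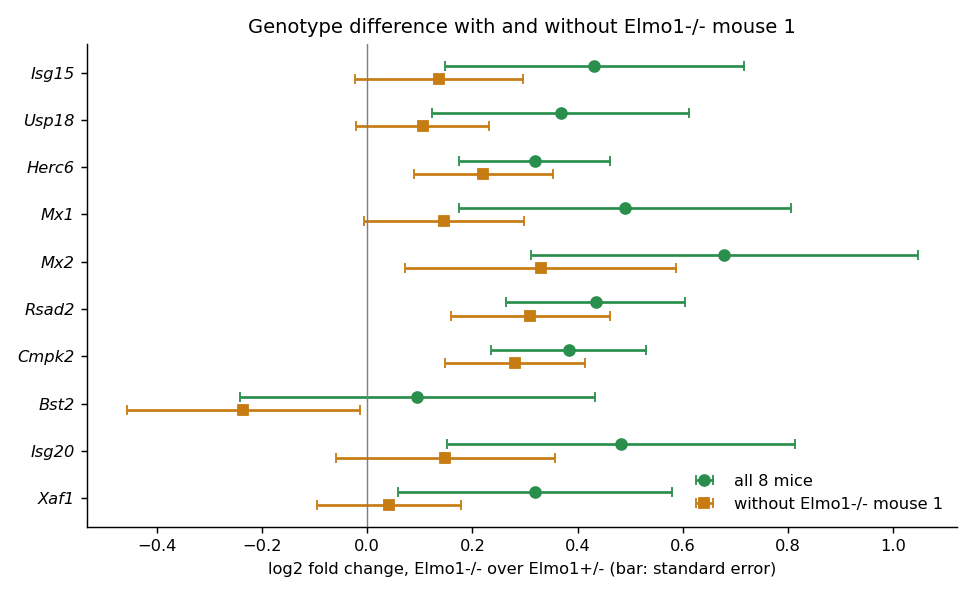
Log2 fold change of Elmo1-/- over Elmo1+/- for each antiviral gene (x axis, bar: standard error from limma) with all 8 mice (circles) and without Elmo1-/- mouse 1 (squares). Every point moves to the left without that mouse, the median from 0.41 to 0.15, and Bst2 crosses 0 to −0.24. The direction of the shift was fixed, because that mouse was the highest for every gene.

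When mice with the same number were compared, Elmo1-/- was higher in 33 of the 40 differences (10 members, 4 numbers). In number 1 all 10 members were higher in Elmo1-/-, with a median difference of 1.08 in log2(normalized count + 1) and a range from 0.72 for Bst2 to 1.56 for Mx1, that is, 1.65 to 2.94 times. Number 4 also had all 10 higher, at a smaller median of 0.29 and a range from 0.14 for Xaf1 to 0.58 for Rsad2. The other two numbers were mixed.

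In number 2, 6 members were higher, with a median of 0.018 and a range from −0.52 for Bst2 to 0.39 for Mx1. In number 3, 7 were higher, with a median of 0.13 and a range from −0.13 for Mx1 to 0.40 for Mx2. The share of all tested genes that was higher in Elmo1-/- was 48.4%, 49.8%, 50.4% and 51.5% in numbers 1 to 4. Mx1, Rsad2 and Cmpk2 were higher in numbers 1, 2 and 4 and lower in number 3, whereas Isg15, Usp18, Bst2 and Xaf1 were lower in number 2. Herc6, Mx2 and Isg20 were higher in all 4 numbers, as were 4.7% of all tested genes, although in number 2 the difference was 0.0048 for Herc6 and 0.032 for Isg20.

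The replicate numbers were taken to pair the libraries, and the fit was repeated with the number as a block. Same-numbered mice deviated together from their genotype means, but so did most differently numbered mice of the same set (1 and 2, or 3 and 4). The deviations therefore do not tell pairs from sets, and the blocked p-values depend on the pairing taken. With the block limma again called 0 members (adjusted p = 0.9998 for each), and 5 had an unadjusted p under 0.05, namely Mx2 (0.0067), Isg20 (0.0299), Cmpk2 (0.0302), Herc6 (0.0430) and Rsad2 (0.0476), against 2.75% of all genes and 1.29% in the same direction. When both mice numbered 1 were left out of the blocked fit, an alternative added after the data were seen, 9 members were above 0 (51.6% of all genes) with a median of 0.14, 0 were called, and Mx2 (log2 fold change 0.41, limma unadjusted p = 0.0157) and Cmpk2 (0.22, limma unadjusted p = 0.0462) were under 0.05, where 1.44% of all genes were in that direction.

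**Figure D3:**
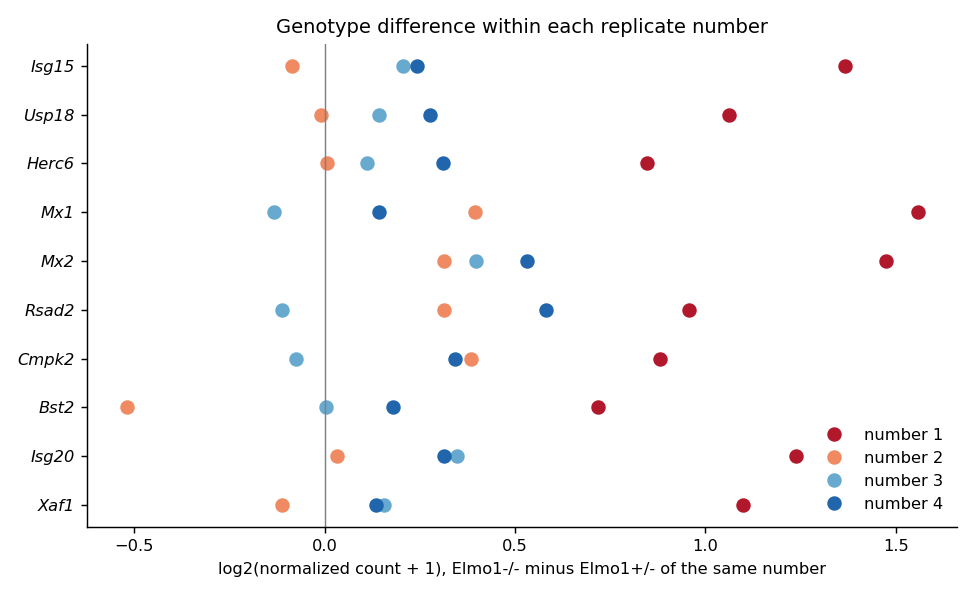
Difference in log2(normalized count + 1) between the Elmo1-/- and the Elmo1+/- mouse of the same number (x axis) for each antiviral gene, with 1 point per number. The points of number 1 lie to the right of all others in every row, from 0.72 to 1.56, and those of numbers 2 and 3 fall on both sides of 0.

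The members differed in how far Elmo1-/- mouse 1 stood apart. For Isg15, Usp18, Mx1, Mx2, Bst2, Isg20 and Xaf1 it was 1.605 to 2.20 times the next mouse, a gap of at least 1.5 times that 1.05% of all genes had. For Herc6, Rsad2 and Cmpk2 it was 1.09 to 1.13 times the next mouse, which was Elmo1-/- mouse 4 each time. This division was made after the values were seen. Against the median of the other 7 mice, mouse 1 was higher by a median log2 of 1.14 over the 10 members and by −0.0024 over all tested genes.

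Leaving out another Elmo1-/- mouse had the opposite effect on several members. Mouse 3 was the lowest Elmo1-/- mouse for every member except Herc6, so a rise without it followed from the values by which it is singled out here. Without it the median log2 fold change was 0.55, and Mx1, Mx2, Rsad2 and Cmpk2 had groups that did not overlap. The share of all genes in the same 3-against-4 comparison was 2.57%. As the mouse was singled out by its low values in the members, that share is not a test of them. Limma still called 0 members. Without control 4, the groups of Herc6 did not overlap, as for 2.89% of all genes.

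Of the 10 members, 2 were called between the mice numbered 1 and 2 and those numbered 3 and 4. These are the sets that the first principal component parts, and 32.6% of all genes were called, 15.6% of all genes downward. The count is thus not particular to the members. Bst2 was lower in mice 3 and 4 (log2 difference −0.78, limma adjusted p = 0.0225) and so was Mx2 (−0.80, limma adjusted p = 0.0341). This fit held all 8 mice, including Elmo1-/- mouse 1, the highest for both genes, and was not repeated without it. For Rsad2 and Cmpk2 the sets differed by log2 values of 0.0024 and −0.00092. The median log2 fold change of genotype over the members was 0.63 within mice 1 and 2 and 0.21 within mice 3 and 4. The larger value came from number 1. The median same-number difference was 1.08 in number 1 and 0.018 in number 2, beside 0.13 in number 3 and 0.29 in number 4. For Mx1 the log2 fold changes within the sets were 0.98 and 0.0057, for Cmpk2 0.63 and 0.13, and for Bst2 0.10 and 0.09. The difference between the sets was not significant for any member (limma interaction of genotype and set, adjusted p = 0.9999), as for all genes tested, where 0 were called by limma or edgeR and 2.67% had an unadjusted limma p under 0.05.

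Per kb of annotated exon, the members spanned a wide range of levels in control osteoclasts. Bst2 was the most abundant at 13149.9 ± 3988 normalized counts per kb (SD, n = 4), followed by Isg15 at 2544 ± 423, Usp18 at 575 ± 75.5 and Rsad2 at 374 ± 31.7. Xaf1 (250.3 ± 38.4) and Cmpk2 (209 ± 22.7) came next, with overlapping ranges. Mx1 was at 98.1 ± 7.14, Isg20 at 67.4 ± 13.7 and Herc6 at 64.9 ± 7.51, the last pair again with overlapping ranges, and Mx2 was the lowest at 31.9 ± 7.99. The ranges of all other neighbours in this order did not overlap over the 4 control mice.

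The genes that carry the interferon signal were measured beside the members. Of the 9 such genes described here, 8 passed the filter on low values, 0 were called by limma or edgeR, and 0 were under an unadjusted 0.05 by either test. A log2 fold change above 0 was found for 6 of the 8 (48.4% of all genes), with a median of 0.079. Without mouse 1 the count was 3 of the 8 (51.3% of all genes) and the median −0.012. Ifnb1, the gene of interferon beta, was between 0 and 2.84 normalized counts in all libraries and was not tested.

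Irf7, the transcription factor that amplifies interferon production, was at 25956 in Elmo1-/- mouse 1 and between 4038 and 9340 in the other 7 mice. Its log2 fold change was 0.37 with all mice and −0.16 without mouse 1. Stat2 (0.30, and 0.09 without mouse 1) and Irf9 (0.11 and 0.04) encode subunits of the complex that binds the response element. The receptor chains Ifnar1 (0.10) and Ifnar2 (0.05), the kinases Jak1 (−0.03) and Tyk2 (0.01) and the virus-sensing factor Irf3 (−0.02) had log2 fold changes close to 0, none called by limma.

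Other interferon-stimulated genes were not called either. Of 30 on the list, 29 were tested, Ifi44l being at 0 in all libraries. None of the 29 was called by limma or edgeR. In the direction of Elmo1-/-, 5 had an unadjusted limma p under 0.05 (0.53% of all genes) and 8 an unadjusted edgeR p under 0.05 (0.545%). A log2 fold change above 0 was found for 28 (48.4% of all genes), with a median of 0.27 beside 0.41 for the members. Without mouse 1 the count above 0 was 25 (51.3% of all genes) and the median 0.15. Limma then called 0, and 3 had an unadjusted limma p under 0.05 in the direction of Elmo1-/- (1.21% of all genes). The 3 highest log2 fold changes were those of Ifi44 (0.68), Ifit3b (0.65) and Ifit2 (0.62), and the 3 lowest those of Ifi27 (−0.16), Ifitm3 (0.09) and Samhd1 (0.12). Mouse 1 was the highest of the 8 mice for 26 of the 29, against 27.1% of all genes.

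Averaged over the members, the centred log2 level was 0.96 in Elmo1-/- mouse 1, 0.02 in mouse 2, −0.32 in mouse 3 and 0.15 in mouse 4, and −0.16, −0.05, −0.42 and −0.16 in the controls in the same order. In both genotypes mouse 3 was the lowest. Among all other tested genes, those with the smallest root mean square difference from this profile over the 8 libraries were Oasl2 (0.065), Ifi209 (0.075), Oas3 (0.079), Gbp6 (0.082) and Igtp (0.084), where the median gene was at 0.43. The member closest to the mean profile was Usp18 (0.051), whose nearest member was Xaf1 (0.047 between the pair), and the farthest was Bst2 (0.29).

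**Figure D4:**
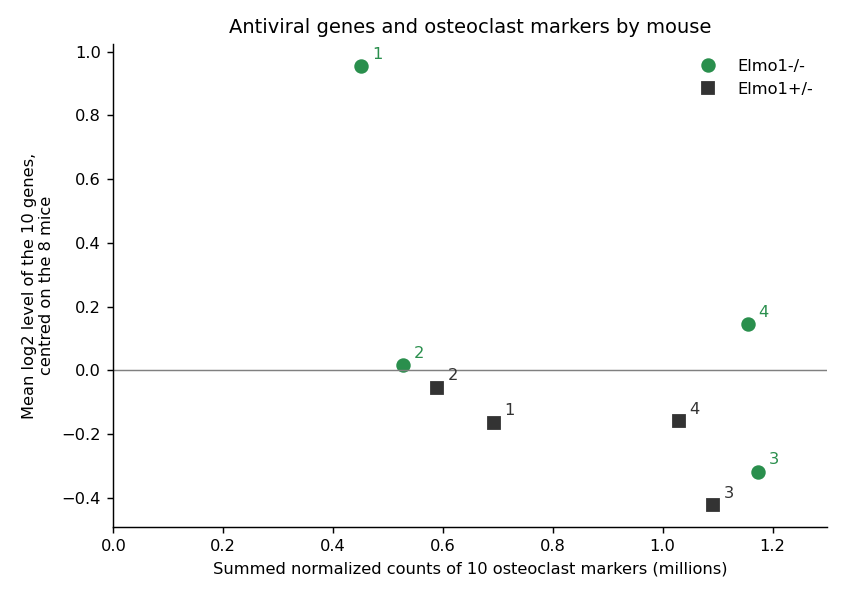
Mean centred log2 level of the 10 antiviral genes (y axis) against the summed normalized counts of 10 osteoclast markers (x axis) in each mouse, labelled by its number, with circles for Elmo1-/- and squares for Elmo1+/-. Elmo1-/- mouse 1, at 0.96, has the highest antiviral level and the lowest sum of markers, and the other 7 mice lie between −0.42 and 0.15.

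Markers of other cells that the cultures could hold were summed in each library. Of the plasmacytoid dendritic cell markers, Klk1 was at 0 and Siglech under 10 in all libraries. Ccr9 was low but highest in Elmo1-/- mouse 1, at 19.9 against 5.93 to 12.4 in the other mice. Cox6a2 was at 46.7 to 86.4, highest in control 1. The 4 markers summed to 59.1 to 89.9 normalized counts in the Elmo1-/- mice and 64.0 to 96.6 in the controls. All 4 markers of T and natural killer cells were under 10, with Cd3g and Ncr1 at 0, and of the 4 B-cell markers 3 were under 10, Cd79a and Ms4a1 among them, so that the sum of 160.3 to 416 in Elmo1-/- and 164 to 335 in the controls was nearly all Cd79b. That sum was highest in Elmo1-/- mouse 1. The 5 neutrophil markers, S100a8 the highest, summed to 10290.3 to 22406 in the Elmo1-/- mice and 12287 to 21393 in the controls, and 4 of the 5 were highest in mouse 1. The 4 macrophage markers, led by Adgre1, summed to 161122 to 195599 and 145830 to 195767, and Csf1r and Cd68 among them were highest in mouse 1. The 4 stromal markers, led by Dcn, summed to 948 to 1743 and 1007 to 1644, with Col1a1 highest and Dcn lowest in mouse 1. That mouse was the highest of the 8 for 27.1% of all tested genes, and the share for which it was the lowest was not counted. The osteoclast markers, Cd79b, Ccr9, 4 of the 5 neutrophil markers and some macrophage and stromal markers thus stood at an extreme in mouse 1 together with the antiviral genes. Their part in the result was not tested.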

How the data were processed

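Osteoclasts from 4 Elmo1-/- and 4 Elmo1+/- mice were sequenced as mRNA libraries with 75 bp paired-end reads, 1 library per mouse. FastQC, STAR, featureCounts and DESeq2 are named in the submitters' processing notes. For the genome build, the annotation and the handling of strand and shared reads, nothing is given in the sources used here. What the authors deposited is a normalized signal per gene, its read count over the DESeq2 size factor of the library. Their table also holds their own comparison of the genotypes (log2 fold change, standard error, statistic, p-value and adjusted p-value), which was not used. When divided by the smallest step of its library, 100% of values were whole reads (tolerance 0.01), 20905502 to 40846651 per library and 51 to 25747 on a member.

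GENCODE release M21 (GRCm38) gave symbols and positions for 46005 of the 46517 identifiers, and promoter sequences were those of RefSeq (GRCm38.p6). Genotypes were compared with limma 3.58.1 in R 4.3.3 (trended, robust moderation) on log2(normalized count + 1). A gene was tested if 4 or more libraries had a normalized count of 10 or more, which left 14139, and p-values were adjusted over all of these by Benjamini-Hochberg (threshold 0.05). Fold changes are on that scale, which understates changes of low genes. The exact permutation tests were two-sided and treated all mice as exchangeable, without regard to the replicate numbers or the experiments. The members, gene lists and tests were chosen with earlier results of these data known. The text names all members, the genes of the ISG15 and signalling lists, the 3 highest and 3 lowest other interferon-stimulated genes and the 5 genes nearest to the mean profile. Of the signalling and marker lists, 2 genes are not reported here, and the counts over the signalling list leave out 1 of them.

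Alternatives were edgeR 4.0.16 and DESeq2 1.42.0 on the recovered reads, equal totals, TMM, no filter, a minimum of 50, pseudocounts of 0.5 and 8, each library left out, and the replicate number as a block. The correlation of same-numbered deviations across genes lay between 0.156 and 0.703, over 0.1 in every pair, so the numbers were taken to pair the mice, although the labels do not say what they stand for. Differently numbered mice within numbers 1 and 2 or within 3 and 4 correlated at 0.0259 to 0.691, and for Elmo1-/- mouse 4 the value with control 3 (0.614) was above that with control 4 (0.52). On simulated data with 200 changed genes, 4 libraries were set against 4 and 13966 genes were tested. Limma recovered 66.3% of the changes of 1 log2 unit and 96.9% of the changes of 2 units. Unchanged genes made up 3.66% of its calls, 3.64% of those of edgeR and 19.9% of those of DESeq2. No smaller changes and no outlying mouse were simulated, so recovery at the members' log2 fold changes, 0.10 to 0.68, was not measured. Python 3.11.15, pandas 2.3.3, scipy 1.17.1 and matplotlib 3.10.9 were used.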

Additional observations from a re-analysis of the deposited data

Results flagged for a closer look

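In 4 of 54 groups of 4 mice (27 genes, each genotype apart), 1 mouse lay farther from the others than Dixon's test allows at the 95% level, where chance gives about 1 group in 20, or 2.7 of 54. Each time it was Elmo1-/- mouse 1, above the other 3. The rate of 1 in 20 is for separate readings, but these genes share the same mice and were chosen with earlier results of these data known. Mouse 1 was also the highest of the 8 mice for 27.1% of all tested genes. The test was run on the 27 genes only, so the count cannot be weighed against that rate. The gap to the next mouse was a share of 0.879 of the whole range for Bst2, 0.832 for Xaf1, 0.830 for Uba7 and 0.891 for Irf7.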

How the results depend on the processing

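Limma, edgeR and DESeq2 called 0 of the 10 members under every alternative tried, with adjusted p between 0.929 and 0.99998. The fewest reads on a member in a library were 51, for Mx2 in control 3. All 10 log2 fold changes stayed above 0 with equal totals, TMM, other pseudocounts and filters, edgeR, DESeq2 and the replicate block, and the block changed no call. The exception in direction was Bst2. Over mice left out in turn it ran from −0.24 (Elmo1-/- mouse 1 omitted) to 0.26, and it was −0.04 and −0.03 when control 3 or control 4 was omitted. In alternatives added after the data were seen, it was −0.11 with the replicate block and both mice numbered 1 left out and −0.28 with edgeR on the other 7 mice. Over mice left out in turn, the median log2 fold change of the members ran from 0.15 (Elmo1-/- mouse 1 omitted) to 0.55 (mouse 3), the members above 0 from 9 to 10, and the members whose groups do not overlap from 0 to 4, with 4 when Elmo1-/- mouse 3 and 1 when control 4 was omitted. Of all genes, 1 to 2 were called, with 2 by DESeq2 and 2 when control 2 was omitted, in place of 1, and the cause was not tested.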
